A study of Mus musculus with 10 samples.

Results

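The ELAV, Musashi and IGF2BP proteins are RNA-binding proteins that decide how long an mRNA lasts, where it goes in the cell and how well it is translated. The members were the 9 listed genes Elavl1 to Elavl4, Msi1, Msi2 and Igf2bp1 to Igf2bp3, taken from all probe sets annotated to only 1 of these symbols on the Affymetrix 430A and 430B arrays. They came to 38 of 45137 probe sets and to 8 of 18193 genes, with 23 probe sets on 430A and 15 on 430B. No probe set was annotated to Igf2bp2 alone, and it was not analysed here. The comparison was of 3 medulloblastomas, malignant tumours of the cerebellum, with 2 samples of adjacent cerebellum that the labels call wild type, within each chip. All samples came from mice carrying the transgene CAGGS-CreER and the allele R26-SmoM2 given tamoxifen by injection at postnatal day 10 (1 mg for each 40 g that the animal weighed), so the cerebellum samples share the genotype and the injection with the tumours. CAGGS is a broadly active promoter, CreER a recombinase that tamoxifen switches on, and SmoM2 an activated form of the Hedgehog transducer Smoothened placed in the Rosa26 locus. Samples of 1 tissue are labelled as biological replicates, with neither the age at dissection nor whether a tumour and a cerebellum sample came from the same mouse, and the p-values speak only of the spread among these samples.

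As background, the ELAV proteins bind AU-rich and U-rich stretches of mRNA and mostly stabilise the transcript. Elavl1, known as HuR, is made in nearly all cells, while Elavl2 (HuB), Elavl3 (HuC) and Elavl4 (HuD) belong to neurons and appear as neural precursors leave the cell cycle. Musashi proteins are RNA-binding proteins of neural stem cells and precursors, and Msi1 is best known for repressing translation of Numb, an inhibitor of Notch signalling. The IGF2BP proteins, also called IMP proteins, carry and protect mRNAs such as those of Igf2, Actb and Myc in the embryo, and are found at low levels in most adult tissues.

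Of the 9 genes, 7 had promoter windows in the RefSeq table of the GRCm38.p6 build, 17 windows in all, each running from 250 bases before a transcript start to 50 bases after it. Those of Elavl1, Elavl2 and Elavl3 are shown because Elavl1 and Elavl2 were called higher in tumours on 430A and Elavl3, of the same family, was not. They lie on the minus strand at chr8:4325051-4325350 for Elavl1, chr4:91399935-91400234 for Elavl2 (the start farthest upstream of its 6 windows) and chr9:22051974-22052273 for Elavl3, and read 5′ to 3′ with capitals for CCAAT, the element bound by NF-Y, and for the E-box CAGCTG.
Elavl1 promoter: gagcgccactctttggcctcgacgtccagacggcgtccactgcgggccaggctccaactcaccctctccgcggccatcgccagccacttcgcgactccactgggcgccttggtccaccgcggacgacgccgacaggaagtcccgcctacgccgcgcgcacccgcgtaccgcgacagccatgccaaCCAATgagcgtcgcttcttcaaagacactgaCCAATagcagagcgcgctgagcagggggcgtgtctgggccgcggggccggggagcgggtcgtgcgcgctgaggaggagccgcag
Elavl2 promoter: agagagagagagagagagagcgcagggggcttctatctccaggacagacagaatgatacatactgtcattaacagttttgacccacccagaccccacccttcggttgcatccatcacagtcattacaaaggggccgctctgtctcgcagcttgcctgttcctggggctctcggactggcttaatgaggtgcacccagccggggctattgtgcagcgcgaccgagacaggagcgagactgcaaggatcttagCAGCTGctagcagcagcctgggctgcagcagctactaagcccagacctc
Elavl3 promoter: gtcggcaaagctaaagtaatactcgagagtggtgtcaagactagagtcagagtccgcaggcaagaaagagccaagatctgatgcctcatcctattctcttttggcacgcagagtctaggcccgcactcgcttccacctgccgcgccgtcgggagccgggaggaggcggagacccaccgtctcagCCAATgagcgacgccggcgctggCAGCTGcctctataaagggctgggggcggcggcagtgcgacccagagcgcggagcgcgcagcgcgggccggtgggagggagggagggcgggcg
The Elavl1 window held CCAAT at 65 and at 34 bases before the start. The Elavl3 window held CCAAT at 66 and CAGCTG at 43 bases before the start, and the Elavl2 window shown held CAGCTG at position 2 of the transcript and no CCAAT, while each of the other 5 Elavl2 windows held 2 CCAAT. Over the member genes, 14 of the 17 windows held CCAAT, against 37.4% of all 32851 windows, and 6 held CAGCTG, against 16.3%. Some windows of 1 gene overlap and so repeat the same bases. By gene, 6 of the 7 held CCAAT and 3 held CAGCTG in some window. The motifs were chosen with the windows seen, so these shares are no test of an excess. Neither GACCACCCA, the consensus of the GLI factors, nor TTTCCCGC, an E2F element, was in any of the 17 windows, against 0.253% and 1.07% of all windows. Each motif was searched on both strands, none shares bases with another in the windows printed, and a match of letters is a description of the sequence only.

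Intensity was used as deposited, and which scaling, centring or background treatment lies behind it is unknown, although tumour values can be set against cerebellum values within a chip. The array medians lay between 33.3 and 35.9 on 430A and between 22.5 and 24.0 on 430B. Over the 100 probe sets that both chips hold, tumour 1 of 430A deviated from the tumour mean most like tumour 2 of 430B (r = 0.83), tumour 2 of 430A like tumour 3 (r = 0.86) and tumour 3 of 430A like tumour 1 (r = 0.73), so a tumour number does not show the same RNA across the chips. On those probe sets the 430B arrays of tumours 1 and 2 read brighter than 430A, with factors of 0.617 and 0.639 needed to match it, against 0.933 for tumour 3 and 0.972 and 0.899 for the cerebellum arrays. Results of most member probe sets on 430B are therefore given also with the arrays scaled on the shared probe sets and without those 2 tumours. The tissue labels were checked on markers of cell types. In the cerebellum samples the summed intensity of 8 markers of mature granule neurons was 7192 and 7881 units and that of 6 Purkinje cell markers 13262 and 16892, against 306 to 357 and 224 to 472 in the tumours. The tumours had summed intensities of 2619 to 3846 over 8 markers of granule neuron precursors and 2820 to 3164 over 8 markers of dividing cells, against 295 and 132, and 249.95 and 81.02, in cerebellum samples 1 and 2. Cerebellum 1 read above cerebellum 2 in both of these sums, as it also did in every called Elavl1 and Elavl2 probe set. The part of dividing or precursor cells in cerebellum 1 was not tested. No marker tested stood at the floor of 1 in any array.

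Elavl1 and Elavl2 were higher in the tumours on the 430A chip, with log2 fold changes of 1.31 to 1.49 in 5 of their 7 probe sets there. A constant was added to the intensity before the log was taken, so the ratios of the intensities themselves are larger in these probe sets. Elavl3 differed between tumours more than between tissues, and Elavl4 had lower values in the tumours that did not pass the test. Of the 17 member probe sets tested on 430A, 6 were called higher (35.3%) and none lower at an adjusted p below 0.05 in limma, against 13.1% and 19% of all 16969 probe sets tested. Those 6 belong to Elavl1 and Elavl2 alone and share their gene, so they stand for 2 of the 7 member genes tested on that chip (Igf2bp1 had no tested probe set there). At an unadjusted limma p below 0.05, 7 of the 17 were higher and 1 (Elavl4 1428741_at) lower, against 16.9% and 23.7% of all probe sets. On 430B 1 of 14 was called higher, a probe set of Msi1, and none lower, against 7.85% and 9.77% of 16883, and at an unadjusted limma p below 0.05 the counts were 1 and 0, against 13.8% and 15.4%. These backgrounds move with single arrays: the probe sets called higher on 430B, 1326 in all, were 618 without cerebellum 1, 513 without cerebellum 2, 823 without tumour 2 and 2601 without tumour 3, and those called lower, 1649, were 988 and 917 without cerebellum 1 and 2. On 430A the 2231 called higher became 1436 and 1284 without cerebellum 1 and 2, and the 3229 called lower became 1967 without cerebellum 2. All 3 tumours lay above both cerebellum arrays in 6 of the 17 probe sets on 430A and below them in 4, against 23.8% and 31.8% of all probe sets, and in 3 and 1 of the 14 on 430B, against 20.8% and 24.7%. The median log2 fold change of the tested member probe sets was 0.29 on 430A and 0.05 on 430B, beside -0.05 and -0.02 over all probe sets.

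**Figure D1:**
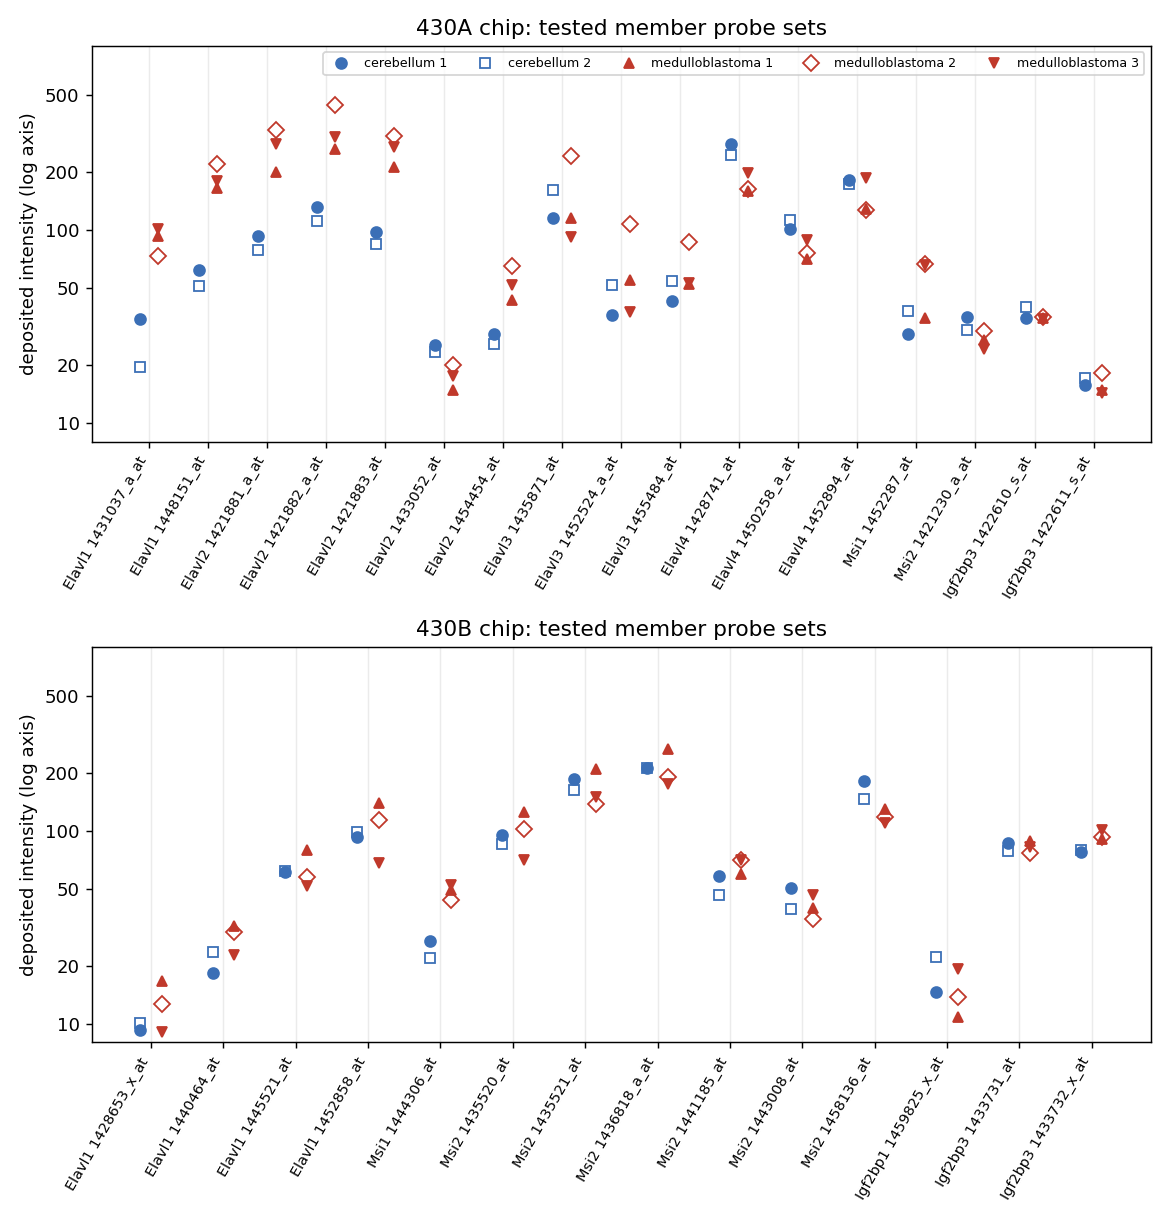
Deposited intensity (log axis) of each tested member probe set on the 430A (top) and 430B (bottom) arrays, with blue symbols for the 2 cerebellum samples and red symbols for the 3 medulloblastomas. The tumours stand above the cerebellum in both 430A probe sets of Elavl1 and in 4 of 5 of Elavl2, and tumour 2 stands above the other arrays in all 3 of Elavl3.

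Elavl1 encodes the ELAV protein found in most cells. Its probe set 1448151_at read 165, 219 and 179 units in tumours 1, 2 and 3 and 61.8 and 51.0 units in cerebellum samples 1 and 2. Every tumour stood well above both cerebellum samples, and tumour 2 was the highest. The log2 fold change, on the log2(intensity + 16) scale used throughout, was 1.49 ± 0.20 (SE; limma adjusted p = 1.73e-04). The other 430A probe set, 1431037_a_at, read 93.0, 73.2 and 102 units in the tumours, against 34.4 and 19.5 in the cerebellum, again with no overlap, at 1.31 ± 0.20 (limma adjusted p = 4.52e-04). Without cerebellum 1 and without cerebellum 2 this probe set gave 1.56 and 1.05, the widest spread of these fits for Elavl1 on 430A, and both remained called.

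The 4 probe sets of Elavl1 on the 430B chip gave another picture. Probe set 1452858_at read 139, 114 and 67.8 units in tumours 1, 2 and 3 and 93.2 and 98.1 in the cerebellum. Tumour 3 lay below both cerebellum arrays and the other tumours above them. Its log2 fold change was 0.09 (95% interval -0.48 to 0.67, limma adjusted p = 0.858). Probe set 1440464_at read 32.3, 30.0 and 22.6 units in the tumours, against 18.2 and 23.5 in the cerebellum, a log2 fold change of 0.26 (95% interval -0.08 to 0.60, limma adjusted p = 0.299). Groups overlapped in this probe set through tumour 3 alone. The remaining pair, 1445521_at and 1428653_x_at, had log2 fold changes of 0.02 and 0.15, and the second of these read at most 16.6 units on any array. The upper ends of the 4 intervals, from 0.43 to 0.67, lay below the lower ends on 430A, 0.86 and 1.05. Scaling on the shared probe sets lowered the 430B values further, to 0.03, -0.28 and -0.24 in 1440464_at, 1445521_at and 1452858_at, and without tumours 1 and 2, a fit that leaves 1 tumour assumed to vary like the cerebellum samples, they were 0.07, -0.19 and -0.41. So the rise of Elavl1 rests on the 430A probe sets, and the difference between probe sets was not tested.

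Elavl2 encodes HuB, a neuronal ELAV protein. Probe set 1421881_a_at read 201, 329 and 279 units in the tumours, against 93.7 and 78.5 in the cerebellum. The lowest tumour, tumour 1, stood above both cerebellum samples, and tumour 2 was the highest. The log2 fold change was 1.46 ± 0.23 (SE; limma adjusted p = 5.78e-04). Probe set 1421883_at, with 213, 308 and 270 units against 98.2 and 84.5, and 1421882_a_at, with 264, 443 and 304 against 132 and 111, kept the same order of the arrays. Their log2 fold changes were 1.37 ± 0.21 and 1.33 ± 0.24 (limma adjusted p = 5.03e-04 and 0.00136). All 3 come from the same sequence record in the platform annotation, so they are not independent measurements of the gene.

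The other pair of Elavl2 probe sets, made from a different sequence record, was dimmer and split. Probe set 1454454_at read 43.6, 65.2 and 51.8 units in tumours against 29.1 and 25.8 in cerebellum, a log2 fold change of 0.67 ± 0.17 (limma adjusted p = 0.0112). This call ended without either cerebellum sample, at 0.72 (limma adjusted p = 0.0569) without cerebellum 1 and 0.61 (0.114) without cerebellum 2. A fit with 1 cerebellum array takes its spread from the tumours alone, and the size of the change moved little. Probe set 1433052_at read 14.9, 20 and 17.5 units in tumours against 25.5 and 23.4. It was the sole Elavl2 probe set with all tumours below the cerebellum, and its log2 fold change of -0.28 (95% interval -0.59 to 0.03, limma adjusted p = 0.171) did not pass the test.

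Elavl3 encodes HuC, which marks young and mature neurons. Probe set 1435871_at read 115, 241 and 92.5 units in tumours 1, 2 and 3 and 115 and 162 in the cerebellum samples. Tumour 2 was above every other array, while tumours 1 and 3 lay at or below cerebellum 1. Probe set 1452524_a_at showed the same excess of tumour 2, with 55.1, 108 and 37.4 units against 36.2 and 52.1, as did 1455484_at, with 52.5, 87.0 and 53.5 units against 42.7 and 54.8. The log2 fold changes of the 3 probe sets were 0.01 ± 0.33, 0.38 ± 0.30 and 0.29 ± 0.21, and none passed the test (limma adjusted p = 0.985, 0.378 and 0.338). Without tumour 2 they were -0.36, 0.05 and 0.10, and the first was also negative, at -0.21, without cerebellum 1. The tumours' SD in 1435871_at was 80.1 units (n = 3) beside 33.2 in the cerebellum (n = 2). In tumour 2 the summed intensity was 3846 over the granule neuron precursor markers, against 2619 and 2647 in tumours 1 and 3. Ccnd2, the brightest of these markers in the tumours, read 606, 1370 and 615 units in tumours 1, 2 and 3. Atoh1 was lowest in tumour 2, at 511, 454 and 553, and the other precursor markers were highest there. Over the mature granule neuron markers the sum was 335 in tumour 2, against 357 and 306. The part of precursors and mature granule neurons in the Elavl3 values was not tested.

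Elavl4 encodes HuD, the ELAV protein of differentiating and projection neurons. Probe set 1428741_at read 159, 162 and 198 units in the tumours, against 281 and 246 in the cerebellum, with no overlap. Its log2 fold change was -0.56 ± 0.20 (SE; 95% interval -1.01 to -0.12), and the limma adjusted p of 0.0535 missed the threshold. Probe set 1450258_a_at also had all tumours below the cerebellum, at 70.7, 76.2 and 88.7 units against 101 and 113, for a log2 fold change of -0.38 ± 0.18 (limma adjusted p = 0.140). In 1452894_at tumour 3 reached 186 units, above the 181 and 174 of the cerebellum, and tumours 1 and 2 both read 128. That probe set gave -0.26 ± 0.22 (limma adjusted p = 0.408). The first probe set was called under 5 of the 13 alternatives tried on it, where its adjusted p ran from 0.0274 to 0.308 and its log2 fold change from -0.66 to -0.37. Over the same arrays, 8 of 8 markers of mature granule neurons and 6 of 6 of Purkinje cells were called lower, with median log2 fold changes of -3.64 and -4.96. The RNA came from pieces of tissue, so fewer cells of a type and less RNA per cell cannot be told apart.

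**Figure D2:**
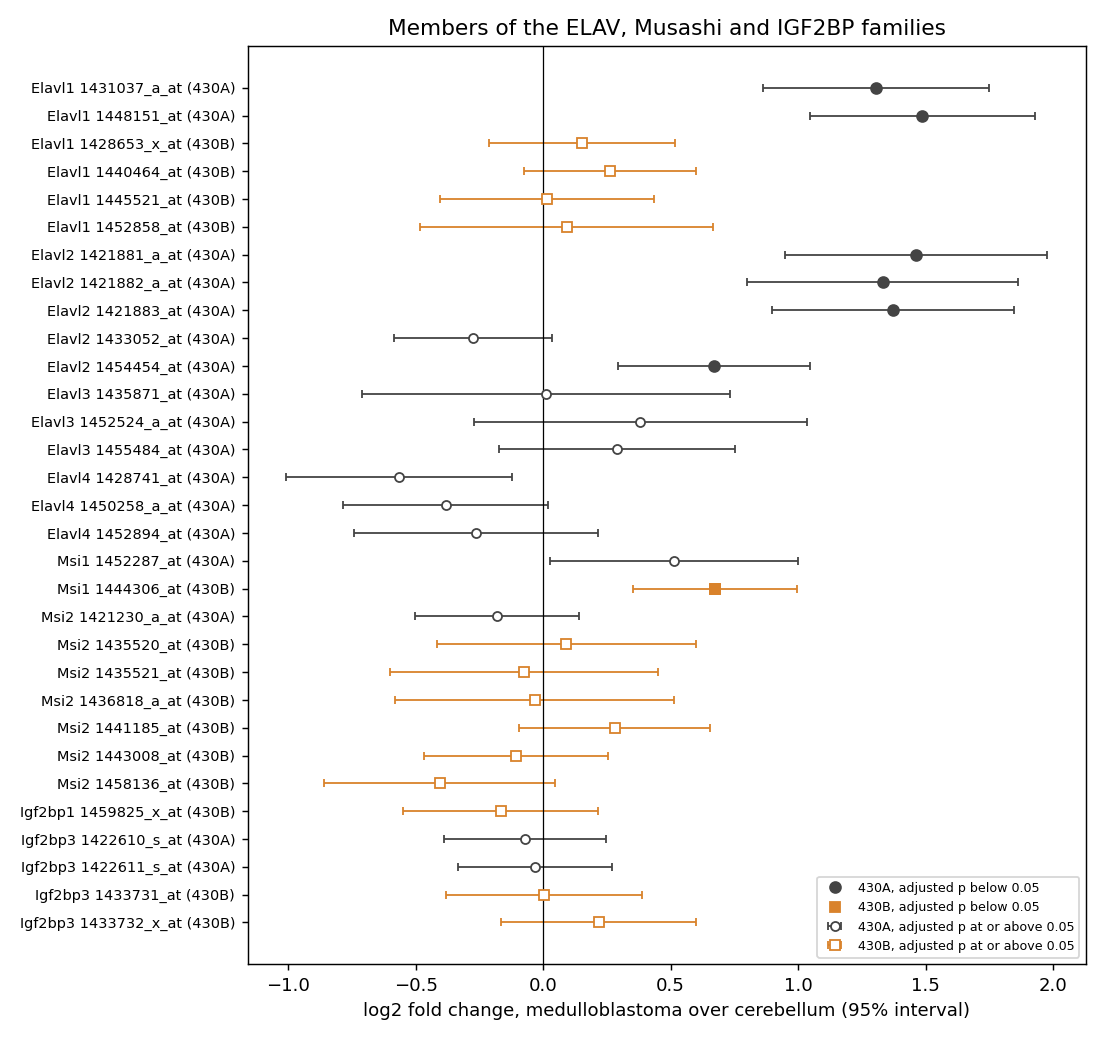
Log2 fold change of medulloblastoma over cerebellum with its 95% interval for the 31 tested member probe sets, with circles for 430A and squares for 430B and filled symbols for an adjusted p below 0.05. The filled symbols are the 6 probe sets of Elavl1 and Elavl2 on 430A and 1 of Msi1 on 430B.

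Msi1, the Musashi protein of neural stem cells and precursors, was called higher by 1 of its 2 tested probe sets. On 430B, 1444306_at read 49.4, 44.0 and 52.2 units in the tumours, against 27.0 and 21.9 in the cerebellum. The tumours all lay above the cerebellum, and the log2 fold change was 0.67 ± 0.14 (SE; limma adjusted p = 0.00900). With the arrays scaled on the shared probe sets it was 0.39 (limma adjusted p = 0.213), without cerebellum 2 it was 0.58 (0.138), and without the tumours 1 and 2 of 430B it was 0.76 (0.00122). On 430A, 1452287_at read 35.1, 66.6 and 66.0 units in tumours and 28.9 and 37.8 in cerebellum. Tumour 1 lay between the cerebellum samples and the other tumours well above them, giving 0.51 ± 0.22 (limma adjusted p = 0.103). Without tumour 1 it was 0.74 (limma adjusted p = 0.0158), while the range of the adjusted p over all its alternatives was 0.0158 to 0.442. The third probe set, 1421409_at, stood at or near the floor of 1 in all arrays but tumour 1 (4.09 units) and was left out by the filter on low values. Of 6 measured markers of neural stem cells, 1 was called lower and the median log2 fold change was 0.06, and their part in the Msi1 values was not tested.

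Msi2, the second Musashi protein, is also made in stem and progenitor cells outside the brain. None of its 7 tested probe sets passed the test, and its log2 fold changes ran from -0.40 to 0.28. The probe set 1436818_a_at read 265, 189 and 175 units in the tumours, against 210 and 213 in the cerebellum. Tumour 1 stood above and the other tumours below, for a log2 fold change of -0.03 (95% interval -0.58 to 0.51). Probe sets 1435521_at and 1435520_at, with -0.07 and 0.09, had overlapping groups as well. With scaling on the shared probe sets, 1436818_a_at, 1435521_at and 1435520_at had -0.38, -0.42 and -0.23. Without tumours 1 and 2 they had -0.25, -0.18 and -0.29. In 1458136_at the tumours read 129, 118 and 110 units, below the 181 and 146 of the cerebellum, a log2 fold change of -0.40 (95% interval -0.86 to 0.05, limma adjusted p = 0.225). This became -0.73 (limma adjusted p = 0.0181) with scaling on the shared probe sets and -0.50 (0.0714) without tumours 1 and 2, with a range of 0.0181 to 0.693 over its alternatives. In 1441185_at the tumours read 59.5, 70.4 and 70.9 units, above the 58.3 and 46.4 of the cerebellum, at 0.28 (limma adjusted p = 0.316). Its log2 fold change was -0.01 with scaling on the shared probe sets and 0.35 without tumours 1 and 2. The 2 probe sets of 430A, both dim, had all tumours below the cerebellum: 1421230_a_at read 27.0, 30.0 and 24.2 units against 35.5 and 30.2, and 1421231_at, which the filter left out, 1.64, 9.17 and 10.1 against 14.0 and 13.6.

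Igf2bp1 and Igf2bp3, the RNA carriers of embryonic tissue, were mostly dim on these arrays, and 5 of their 10 probe sets fell below the filter on low values. None of the 5 tested was called in limma, nor had any an unadjusted p below 0.05. Igf2bp1 had 4 probe sets, of which 1 was tested. That one, 1459825_x_at, read 10.8, 13.8 and 19.3 units in tumours and 14.5 and 22.2 in cerebellum, at -0.17 (95% interval -0.55 to 0.22, limma adjusted p = 0.590). Its log2 fold change was -0.30 with scaling on the shared probe sets and 0.05 without tumours 1 and 2 of 430B. Among those left out, 1418761_at read 17.0, 21.9 and 20.3 units in the tumours, against 6.69 and 11.4 in the cerebellum, so that every tumour was above. With no filter its log2 fold change was 0.52 ± 0.14 (limma adjusted p = 0.0252), and 1449210_at and 1455223_at had -0.02 and 0.26 (0.941 and 0.490). All of these values lie under the chip medians.

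Igf2bp3 had 6 probe sets, 4 of them tested and none called. On 430B, 1433731_at read 89.0, 76.8 and 82.8 units in the tumours, against 86.5 and 78.5 in the cerebellum. The groups lay within each other, with a log2 fold change of 0.00 (95% interval -0.38 to 0.39). Probe set 1433732_x_at read 90.2, 92.6 and 101 units in the tumours, all above the 78.0 and 79.9 of the cerebellum, at 0.22 (95% interval -0.16 to 0.60, limma adjusted p = 0.462). With scaling on the shared probe sets, 1433731_at had -0.30 and 1433732_x_at -0.10, a change of sign in the second. Without tumours 1 and 2 they had 0.00 and 0.30. On 430A, 1422610_s_at read 34.8, 35.3 and 34.6 units in tumours and 34.9 and 40.0 in cerebellum, a log2 fold change of -0.07 (95% interval -0.39 to 0.25). The intervals of the 4 tested probe sets excluded a change of 1 log2 unit in either direction.

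**Figure D3:**
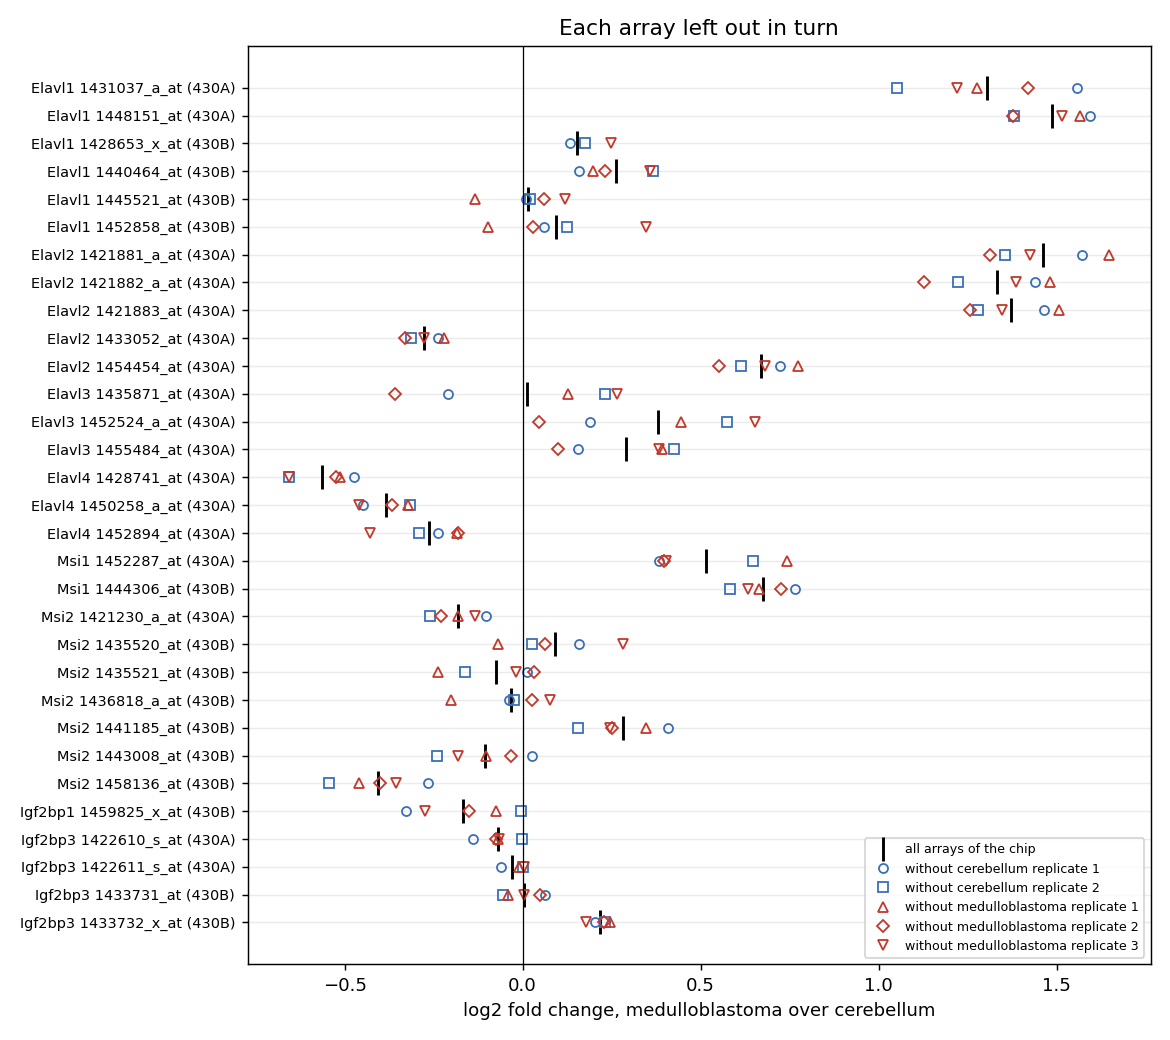
Log2 fold change of the 31 tested member probe sets with all arrays of the chip (black bar) and with each array left out in turn (blue for a cerebellum sample, red for a medulloblastoma). The Elavl1 and Elavl2 values of 430A that were called stay above 0.5, and 1435871_at of Elavl3 lies on either side of 0.

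The arrays were also searched for the 3 genes whose centred log2 values over the 5 arrays of a chip differed least from those of the member with the largest log2 fold change in each family. For Elavl1 (1448151_at) they were Hey1, a transcriptional repressor that Notch signalling induces, Incenp, a subunit of the chromosomal passenger complex, and Hmgn1, a nucleosome-binding protein, with root mean square differences of 0.046, 0.056 and 0.060 log2 units. Hey1 read 222, 274 and 248 units in the tumours, against 85.5 and 72.7 in the cerebellum. For Msi1 (1444306_at) they were Gnas, Enah and Arpc2 at 0.025, 0.046 and 0.047, and for Igf2bp3 (1433732_x_at), which was not called, Mindy3, Fam169b and Tmem164 at 0.018, 0.025 and 0.026. With 5 arrays such a likeness describes only how close the centred values lie in these samples.

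Around the members, other RNA-binding proteins of mRNA stability, transport and translation went both ways. Of 41 listed, 36 were tested with 1 probe set each, and 11 were called higher and 7 lower in limma, against 10.7% and 16% of 14702 genes. The list had a median log2 fold change of 0.13, beside -0.05 over all genes. Ybx1, a cold-shock protein that packages mRNA, read 990.3, 1412.5 and 947 units in the tumours, against 348 and 327 in the cerebellum, a log2 fold change of 1.66 ± 0.21 (limma adjusted p = 1.05e-04). Syncrip, which binds IGF2BP complexes, followed with 1.45 ± 0.24, the stress granule protein G3bp1 with 1.37 ± 0.21 and the poly(A)-binding protein Pabpc1 with 1.32 ± 0.24. Other probe sets of Ybx1 gave 0.38 and 0.13, of G3bp1 0.28 and of Pabpc1 0.28, none of them called, while the 3 other 430A probe sets of Syncrip were called higher and its 430B probe set, at 0.73, was not. Cpeb3, Cpeb4 and Cpeb2, which bind mRNA and control its translation, had -2.11 ± 0.23, -2.09 ± 0.20 and -1.58 ± 0.23. Their relative Cpeb1, named after its values were seen, had -0.98 ± 0.13, so all 4 genes of the CPEB family were called lower by the probe set used. On 430B, 1 probe set of Cpeb3, at -0.38, and 1 of Cpeb2, at -0.62, were not called. All other tested probe sets of these genes were called lower. Qk, the quaking protein of glia, had -2.15 ± 0.25, but of its 7 tested probe sets 2 were called lower and 2 higher. Over the same arrays 6 of 6 markers of oligodendrocytes and 6 of 8 of Bergmann glia and astrocytes were called lower, with median log2 fold changes of -1.70 and -2.22. Of 7 markers of microglia and macrophages 5 were called higher (median 1.12). The summed intensities in cerebellum and tumours were 3921 to 4857 and 168 to 322 for the oligodendrocyte markers, 7080 to 8794 and 1360 to 1706 for those of Bergmann glia and astrocytes, and 419.5 to 511 and 1013 to 1318 for those of microglia, and the part of these cells in the values of Qk and the list was not tested. The paralogue of G3bp1, G3bp2, also named after its values were seen, had -1.12 ± 0.19 (limma adjusted p = 9.52e-04), with 0.14 and -0.52 from its other 430A probe sets.

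**Figure D4:**
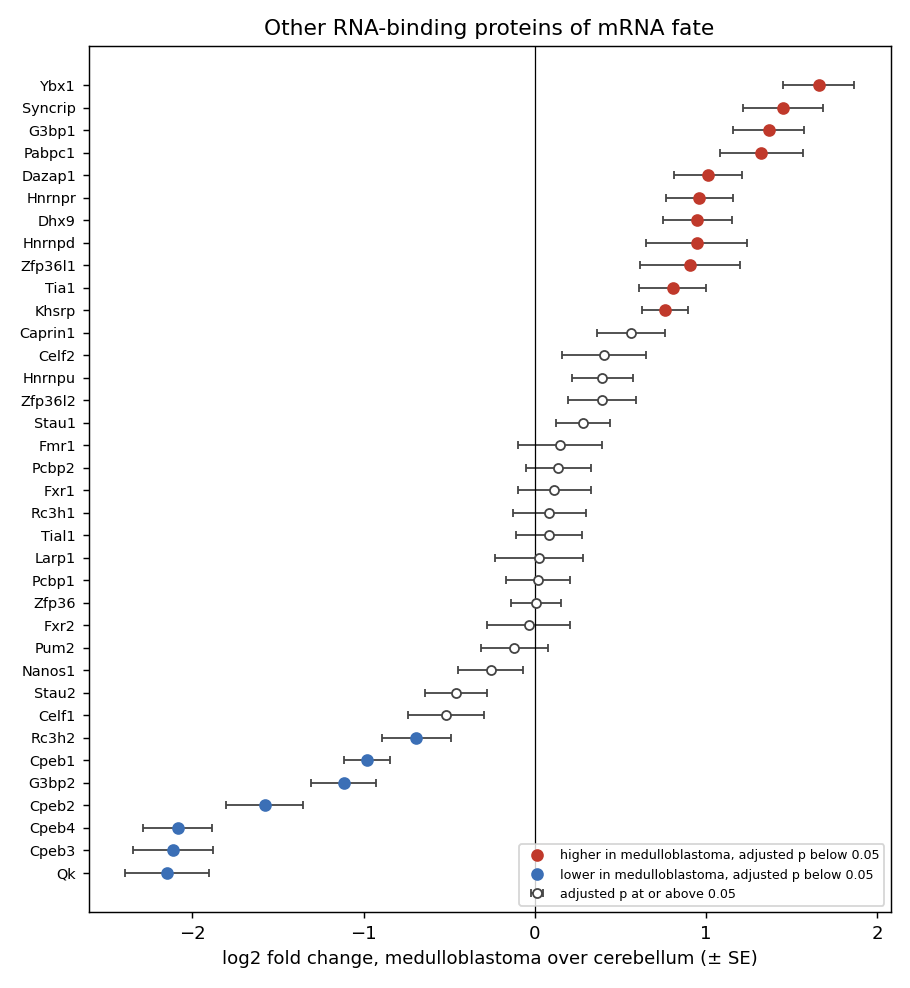
Log2 fold change (± SE) of medulloblastoma over cerebellum for the 36 tested genes of the list of other RNA-binding proteins, 1 probe set each, with red for genes called higher and blue for genes called lower. Ybx1 stands at the top with 1.66 and Qk at the bottom with -2.15.

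Among mRNAs that the literature names as bound by these proteins, 7 of 19 tested were called higher and 5 lower, with a median log2 fold change of -0.12, against 10.7% and 16% of all 14702 genes and their median of -0.05. The genes of this list outside the 4 largest changes in each direction were named after their values were seen. Numb, the classical target of Msi1, read 51.5, 57.8 and 51.8 units in the tumours, against 96.2 and 96.2 in the cerebellum, a log2 fold change of -0.69 ± 0.16 (limma adjusted p = 0.00762). The groups did not overlap, and the value was also -0.69 without either cerebellum sample, where the call ended (adjusted p = 0.0626 and 0.0692). The arrays measure RNA, so repression of translation by Msi1 was not tested. Cdkn1a, a cell-cycle inhibitor reported under Msi1 and Elavl1, had 1.24 ± 0.19. Myc and Cd44, reported under Igf2bp1, had 0.84 ± 0.16 and 0.90 ± 0.16. The highest values were those of Dcx, Ccna2, Mycn and Ccnd1, at 3.95 ± 0.41, 3.67 ± 0.34, 2.87 ± 0.23 and 2.64 ± 0.20, a neuronal microtubule protein, a pair of cyclins and a transcription factor that also belong to dividing and young granule cells. Of the other probe sets, 1 each of Dcx and Mycn gave 0.39 and -0.11 and was not called. The lowest were Fos (-2.25 ± 0.22), Mapt (-1.95 ± 0.31), Bdnf (-1.84 ± 0.14) and Vegfa (-1.02 ± 0.14). Gap43, a growth cone mRNA stabilised by Elavl4, had -0.22 ± 0.21, Actb 0.27 ± 0.15 and Igf2 -0.56 ± 0.34, none of which passed the test (limma adjusted p = 0.491, 0.214 and 0.259). All 8 markers of dividing cells and all 8 of granule neuron precursors were called higher over the same arrays, and their part in these values was not tested.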

How the data were processed

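RNA extracted with Trizol from 3 medulloblastomas and 2 cerebellum samples was read on Affymetrix 430A and 430B arrays, per the labels. The authors deposited 1 linear intensity per probe set and array (array medians 33.3 to 35.9 on 430A and 22.5 to 24.0 on 430B); its software, background correction, scaling and centring are unknown (not given in the sources used here). The number of arrays limits the precision. From the deposited intensity, log2(intensity + 16) was computed, probe sets in the lowest 25% by mean value were dropped, and tumour and cerebellum were compared within each chip with limma 3.58.1 (R 4.3.3; lmFit, eBayes with trend), two-sided, with Benjamini-Hochberg adjustment over all probe sets tested on the chip and calls at 0.05. Gene names came from the platform annotation, which gave 1 gene for 20380 of 22626 probe sets on 430A and 14661 of 22511 on 430B. In counts of genes, a gene was represented by 1 probe set (430A before 430B, suffixes other than _s_at and _x_at first, then the brightest). All members were named, with up to 4 called genes per direction from each list and the 3 genes most like the most changed member of each family. The members and lists were chosen with earlier results of these data known, and the promoter motifs with the windows seen. The fit was tested on simulated data. Alternatives changed the pseudocount, filter, normalization, variance trend, call threshold and the arrays included. Some listed genes are not analysed here.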

Additional observations from a re-analysis of the deposited data

How the results depend on the processing

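Each chip had 3 tumours and 2 cerebellum samples, and a fit without 1 cerebellum sample takes its spread from the tumours alone. The count of 6 member probe sets called higher on 430A ranged from 5 to 7 when 1 array was left out. The count called lower on 430A, 0 as reported, was 1 with a filter of 50%, without the variance trend and with a pseudocount of 64, and from 0 to 1 with 1 array left out; the probe set was Elavl4 1428741_at. On 430B the count called higher, 1 as reported, was 0 with the arrays scaled on the shared probe sets and with a limit of 1 log2 unit, and from 0 to 1 with 1 array left out, and the count called lower was 1 with that scaling. That scaling moved the median log2 fold change of all 430B probe sets from -0.02 to -0.24 and the share of higher among all calls from 44.6% to 21.1% (750 higher, 2797 lower). Quantile normalization moved this share on 430A from 40.9% to 50.7% (2738 higher, 2665 lower). The other RNA-binding proteins had 5 called higher with a limit of 1 log2 unit, against 11, and 8 to 12 higher and 6 to 9 lower with 1 array left out. The target mRNAs had 3 called lower with a filter of 50%, against 5, and 7 higher and 4 to 6 lower with 1 array left out. No member probe set or named gene that was called changed sign under an alternative. The shared replicate numbers are not shown to pair tumour and cerebellum: the deviations of same-numbered samples correlated at -0.029 and 0.170 on 430A and 0.114 and 0.020 on 430B. With the replicate number as a block, in which tumour 3 has no partner and adds nothing to the difference, 7 member probe sets were called higher and 1 lower on 430A (Elavl3 1452524_a_at at 0.65, adjusted p = 0.00657, and Elavl4 1428741_at at -0.66, adjusted p = 0.0375), and over all 430B probe sets 2822 were higher and 2395 lower, against 1326 and 1649 without it, so that the larger number changed side. The fit without tumours 1 and 2 of 430B was chosen after seeing the data.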
